A study of Mus musculus with 3 samples.

Results

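The miR-125 (lin-4) family was followed in exosomes that mouse mesenchymal stem cells released in normoxia, in hypoxia and in hypoxia with GW4869. The family comprises 5 of the 1881 mouse miRNAs on the array: the guide arms mmu-miR-125a-5p and mmu-miR-125b-5p and the passenger arms mmu-miR-125a-3p, mmu-miR-125b-1-3p and mmu-miR-125b-2-3p, written below without the species prefix. They were taken by name, with all 16 of their probes. The family was chosen by the scaled signals of its arms in these same arrays, where the arms moved apart, so its differences are given as a description and without a test.

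All cells came from bone marrow of male wild-type C57BL/6 mice aged 4 to 6 weeks and were used at passages 3 to 6, after growth in medium with 10% fetal bovine serum. The group called N-Exo is exosomes from 24 h of normoxia, H-Exo from 24 h of hypoxia, and H+G-Exo from 24 h of hypoxia with GW4869, an inhibitor of neutral sphingomyelinase that is used to lower exosome release. Vesicles came from the supernatants of 10 dishes and were pelleted by ultracentrifugation. Whether serum, which carries vesicles of its own, was present during collection is not stated in the labels. The design text speaks of 3 samples of each kind of exosome, but 1 array per group was analysed here, and whether RNA was pooled for it is not stated. No difference below therefore has a replicate check, and each error is a standard deviation (SD) or standard error (SE) over the repeated spots of a probe on 1 array, which covers technical error only. H-Exo and N-Exo each enter 2 of the 3 comparisons, as does H+G-Exo, so the comparisons are not independent of each other. Fewer vesicles, fewer copies per vesicle and a different share of other RNA cannot be told apart in such data.

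The founding member of the family is lin-4 of the nematode, whose loss disturbs developmental timing, and the mammalian miR-125 genes keep its seed, the stretch near the 5′ end that pairs with target mRNAs. Each hairpin precursor can give a 5p arm and a 3p arm. In this family the 5p arm is the guide that is mostly loaded into Argonaute, while the 3p arm is the passenger that is mostly lost. miR-125b is abundant in stromal and mesenchymal cells and is known to target the mRNA of the pro-apoptotic protein Bak1, and both miR-125a and miR-125b act in blood stem cells.

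The mature sequences are shown because the guides share a seed that none of the 3 passengers has. They are from RefSeq (GRCm38.p6), bases run 5′ to 3′, and capitals mark the seed, bases 2 to 8.
miR-125a-5p: uCCCUGAGacccuuuaaccuguga
miR-125b-5p: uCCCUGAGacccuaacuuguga
miR-125a-3p: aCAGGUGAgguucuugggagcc
miR-125b-1-3p: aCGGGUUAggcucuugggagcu
miR-125b-2-3p: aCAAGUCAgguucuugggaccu
The guides have their first 13 and last 5 bases in common. Among the 1608 miRNAs of the array with a RefSeq sequence, each guide has its seed in common with 4 others, the other guide among them, whereas the seed of each of the 3 passengers occurs in 0 others. The seeds of the remaining miRNAs were not checked. The 3 passengers resemble each other outside the seed: miR-125a-3p has a run of 12 bases in common with miR-125b-2-3p and a run of 10 with miR-125b-1-3p.

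Mir125a lies on chromosome 17 of GRCm38.p6, with the 5p arm at chr17:17830817-17830840 and the 3p arm at chr17:17830855-17830876 on the plus strand, inside the protein-coding gene Spaca6. miR-125b-5p comes from 2 genes, so its signal cannot be assigned to either. Mir125b-1 holds it at chr9:41581940-41581961, within the long non-coding RNA gene Mir100hg, with the 3p arm at chr9:41581980-41582001. Mir125b-2 holds it at chr16:77646279-77646300, with the 3p arm at chr16:77646318-77646339. All of these are on the plus strand. The array files themselves use the older mm9 build, whose coordinates are not used here.

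The array reads each miRNA with short DNA probes, and the probe read in the text is the brightest detected one of each miRNA. These are shown, 5′ to 3′, because probes for similar arms could bind each other's target. Capitals mark the longest run complementary to another member; for miR-125b-2-3p the longest probe is shown.
miR-125a-5p probe: tcacaggttaaAGGGTCTC
miR-125b-5p probe: tcacaagttAGGGTCTC
miR-125a-3p probe: ggcTCCCAAGAACCTc
miR-125b-1-3p probe: aGCTCCCAAGAgcc
miR-125b-2-3p probe: aggTCCCAAGAACCTg
Each guide probe has an unbroken run of 8 bases that pairs with the other guide. Its first 5 bases pair with the other guide too, since the guides end in the same 5 bases. Binding of each guide to the other's probe was not tested. The miR-125a-3p probe has 12 bases that pair with miR-125b-2-3p, and the miR-125b-1-3p probe has 10 that pair with miR-125a-3p. The guide probes have a lower GC content, 47.4% for miR-125a-5p and 47.1% for miR-125b-5p, than the miR-125a-3p probe at 62.5% and the miR-125b-1-3p probe at 64.3%.

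The call of a detected miRNA needed more than 50% of the spots of a probe to pass the scanner software's test for being well above background. N-Exo had 684 such miRNAs, H-Exo 587 and H+G-Exo 676. Signals were divided by each array's 75th percentile over probes detected on all 3 arrays, which was 417.3, 235.0 and 468.9 in the same order, and are given below as scaled signal. The median labelling spike-in varied less, at 1817, 1538 and 1672. The words rose and fell are kept for miRNAs with detection on each array of a pair, a change of 2-fold or more, and a change above 2 SE. Under this rule H-Exo versus N-Exo had 25 rises and 62 falls, H+G-Exo versus H-Exo had 35 and 148, and H+G-Exo versus N-Exo had 111 and 158. These splits turn on the scaling: with no scaling they were 1 and 134, 185 and 7, and 141 and 140, and the median log2 difference of all measured miRNAs went from 0.34 to -0.49, from -0.42 to 0.57 and from -0.06 to 0.07. Of 6 miRNAs fixed as stromal markers, 6, 5 and 6 were detected, with a summed scaled signal of 214.6, 88.8 and 33.8. Blood cell markers were detected for 2, 2 and 3 of 7 with sums of 0.231, 0.292 and 0.165, and none of the 2 endothelial markers or the 1 liver marker was detected on any array. Of 4 heart and muscle markers 2, 1 and 2 were detected, and of 3 neuronal markers 1, 0 and 0.

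The guides were lower and the detected passengers higher in H+G-Exo than in N-Exo. Under the rule above, both guides fell and miR-125a-3p rose in that comparison, where 26.3% of 601 measured miRNAs fell and 18.5% rose. miR-125b-1-3p was detected in H+G-Exo alone, and miR-125b-2-3p on no array.

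**Figure D1:**
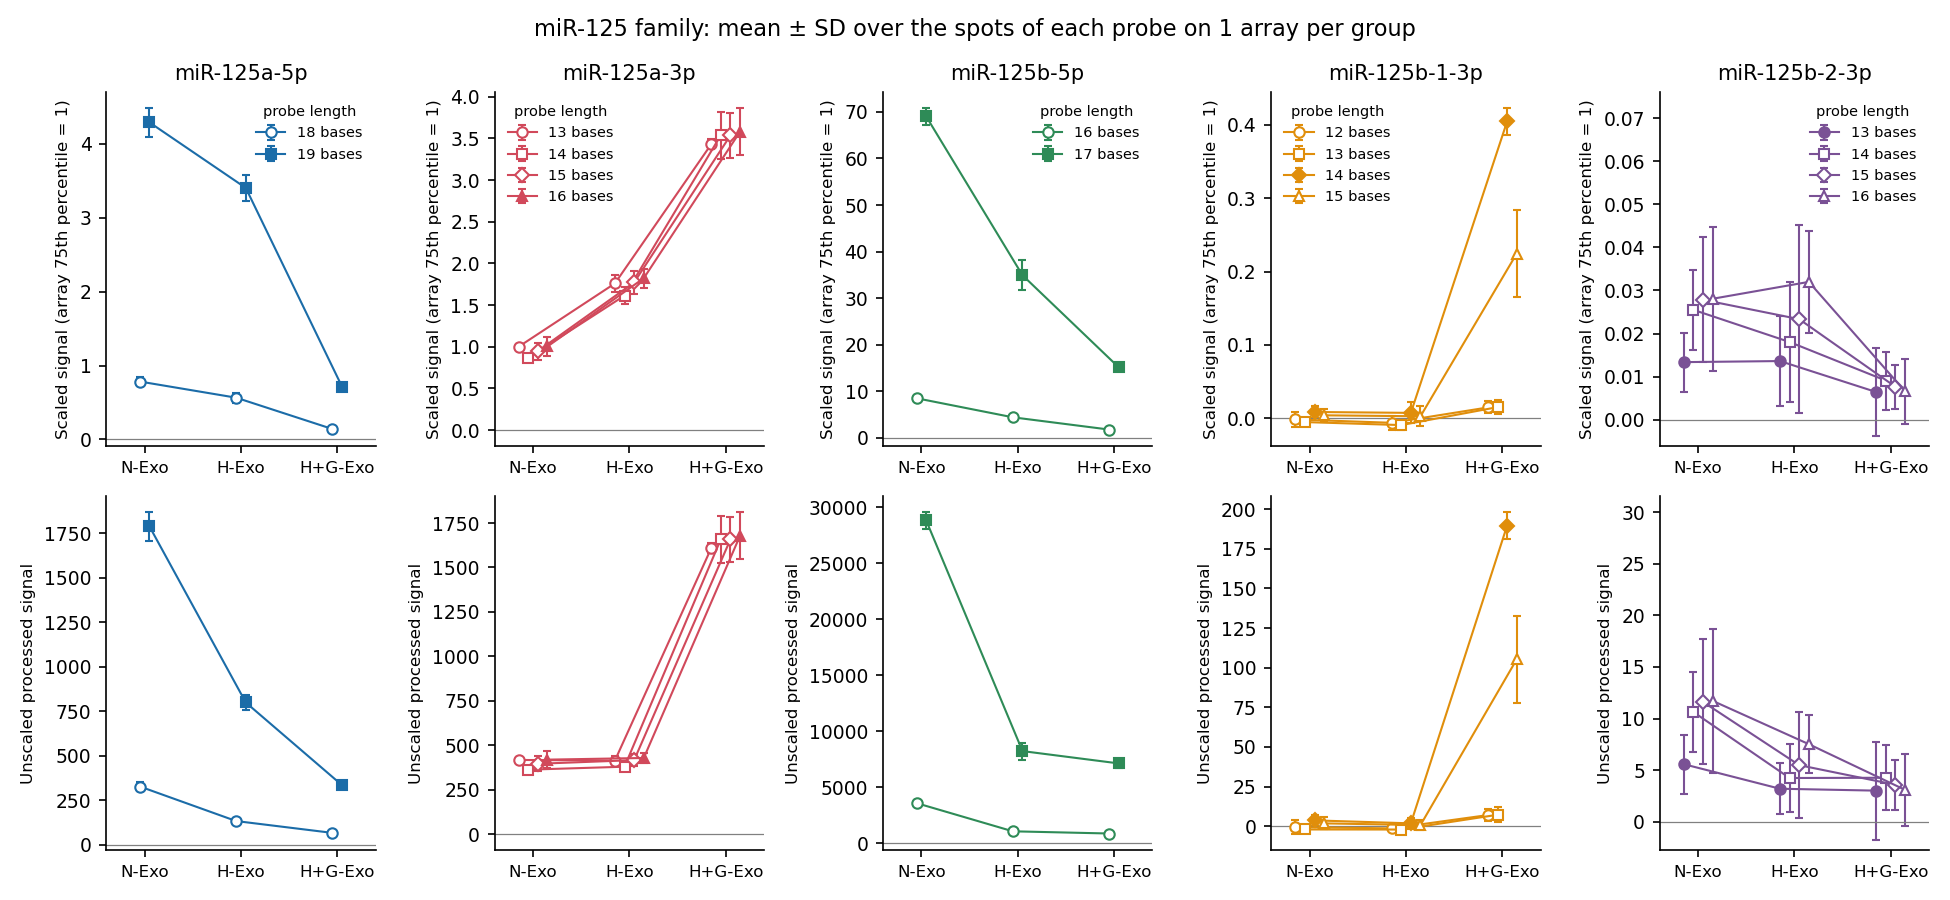
Each column is 1 arm of the family; the upper row plots the scaled signal (array 75th percentile = 1) and the lower row the unscaled processed signal, as mean ± SD over the spots of each probe on the 1 array of each group, with filled symbols for the brightest detected probe (for miR-125b-2-3p, which has none, the shortest). The probes of miR-125a-5p and miR-125b-5p go down from N-Exo to H+G-Exo, all 4 probes of miR-125a-3p go up in scaled signal but are level between N-Exo and H-Exo before scaling, and only the 14- and 15-base probes of miR-125b-1-3p leave the baseline.

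miR-125a-5p, the guide of the chromosome 17 hairpin, read 4.29 ± 0.194 scaled units (N-Exo), 3.40 ± 0.179 (H-Exo) and 0.713 ± 0.0301 (H+G-Exo), with the SD over 15 spots each. In scaled signal the level was high in both groups without the inhibitor and low with it. Before scaling, the spots of miR-125a-5p read 1632 to 1889, 729.2 to 875.5 and 305.2 to 357.6, with no overlap between arrays. The unscaled log2 difference was -1.16 from N-Exo to H-Exo and -1.26 from H-Exo to H+G-Exo. The uneven size of these steps after scaling thus depends on the divisor. In scaled signal H+G-Exo was 4.77-fold below H-Exo, a log2 difference of -2.26 (SE 0.0251), and 6.02-fold below N-Exo at -2.59 (SE 0.0231). In H-Exo versus N-Exo the difference was -0.33 (SE 0.0259), which did not reach 2-fold. Its shorter probe of 18 bases read 0.784, 0.565 and 0.141 and so kept the order of the arrays. Among the 533 miRNAs above the floor on both arrays of H+G-Exo versus H-Exo, miR-125a-5p had the 2nd lowest log2 difference, and it was the 35th lowest of 524 against N-Exo.

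miR-125b-5p, the guide of both miR-125b hairpins, read 69.0 ± 1.80 scaled units (N-Exo, 14 spots), 34.9 ± 3.20 (H-Exo, 15 spots) and 15.2 ± 0.840 (H+G-Exo, 14 spots). It went down in both steps. The log2 difference was -0.98 (SE 0.0356) in H-Exo versus N-Exo, just short of 2-fold at 1.98-fold lower. It was -1.20 (SE 0.0403) in H+G-Exo versus H-Exo, or 2.31-fold lower, and -2.19 (SE 0.0236) in H+G-Exo versus N-Exo, or 4.55-fold lower. The 16-base probe, at 8.53, 4.44 and 1.81, gave the same order. Unscaled spots read 27300 to 30060, 6666 to 9105 and 6295 to 7421 in the same order, so that N-Exo stood apart while the other arrays overlapped. The unscaled log2 difference between H+G-Exo and H-Exo was -0.21, and this second step missed 2-fold under 9 of 14 alternative settings, among them both spike-in scalings. The first step passed 2-fold under 9 of the 14. The summed scaled signal of the stromal markers went down in the same order as the guides, from 214.6 to 88.8 and 33.8, and its part in their fall was not tested. The size of the steps in this sum depends on the divisor, as it does for the guides.

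The 2 guides divided their decline differently over the steps. miR-125a-5p changed less than miR-125b-5p from N-Exo to H-Exo, by a difference of 0.65 in log2 (SE 0.0440), and more from H-Exo to H+G-Exo, by -1.05 (SE 0.0475). From N-Exo to H+G-Exo the gap was -0.40 (SE 0.0330). These gaps do not depend on the divisor of an array, since it acts on both guides alike. Both guides fell in H+G-Exo versus H-Exo, beside 26.1% of 567 measured miRNAs. In H-Exo versus N-Exo neither guide passed the rule, where 10.7% of 582 fell.

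miR-125a-3p, the passenger of the chromosome 17 hairpin, went the other way. It read 1.003 ± 0.111 scaled units (N-Exo), 1.82 ± 0.115 (H-Exo) and 3.58 ± 0.283 (H+G-Exo), with the SD over 7 spots each. H+G-Exo was 3.57-fold above N-Exo, a log2 difference of 1.83 (SE 0.0741). The steps were 0.86 (SE 0.0695) from N-Exo to H-Exo and 0.97 (SE 0.0552) from H-Exo to H+G-Exo, each short of 2-fold, in comparisons where 4.3% and 6.17% of measured miRNAs rose. Before scaling the N-Exo and H-Exo spots overlapped, at 373.8 to 472.5 and 379.8 to 453.9, and only H+G-Exo, at 1529 to 1843, stood apart. The unscaled log2 difference was 0.03 for the first step and 1.97 for the second, so the size of the first depends on the scaling, while the median of all measured miRNAs was -0.49 in that comparison before scaling. The second step passed 2-fold under 11 of 14 alternatives. All 4 probes had this pattern, with unscaled means of 362.3 to 418.8, 379.0 to 428.1 and 1608 to 1679 in that order.

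Set against the median of all measured miRNAs in each comparison, which moves with them under any divisor, miR-125a-5p stood at -0.68 from N-Exo to H-Exo, -1.83 from H-Exo to H+G-Exo and -2.53 from N-Exo to H+G-Exo. miR-125b-5p stood at -1.32, -0.78 and -2.13 in the same comparisons. miR-125a-3p stood at 0.52, 1.40 and 1.89. Each guide was thus below the median and miR-125a-3p above it in all 3 comparisons.

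**Figure D2:**
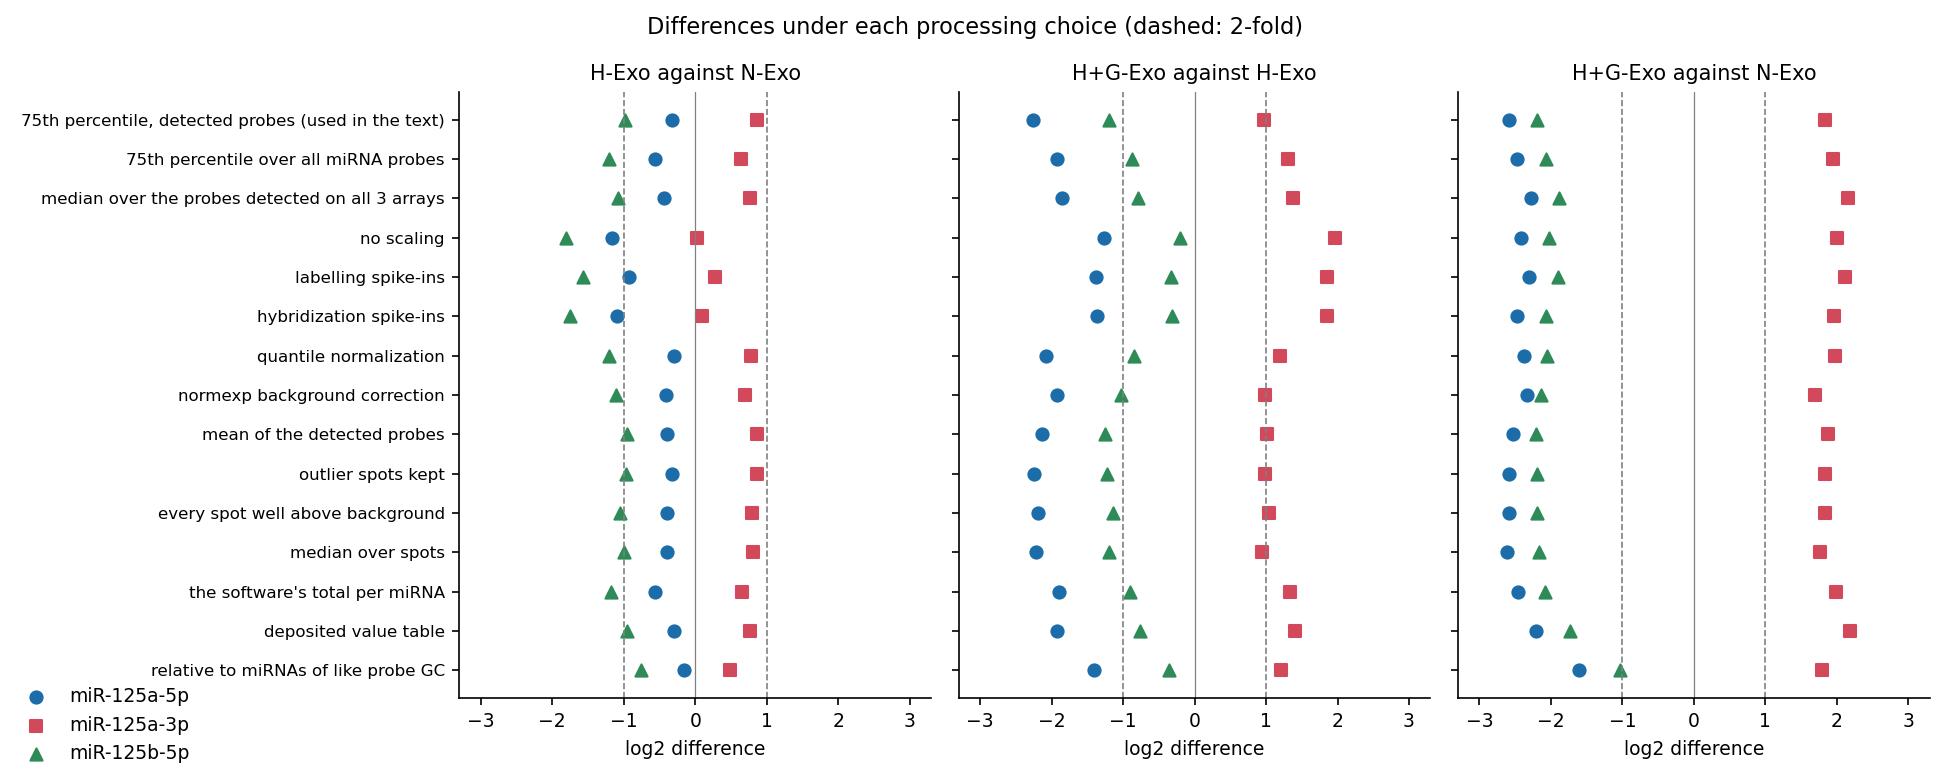
Each panel is 1 comparison and plots the log2 difference of miR-125a-5p (blue circles), miR-125a-3p (red squares) and miR-125b-5p (green triangles) under the processing used in the text (top) and each alternative; dashed lines mark 2-fold. In H+G-Exo versus N-Exo every point lies beyond 2-fold, those of both guides downward and those of miR-125a-3p upward. In H+G-Exo versus H-Exo miR-125b-5p lies between -1.25 and -0.21 and miR-125a-3p between 0.95 and 1.97.

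miR-125b-1-3p, the passenger of the chromosome 9 hairpin, was not well above background in N-Exo or H-Exo, where its brightest probe read 3.63 and 1.76 before scaling. In H+G-Exo that probe read 189.7 ± 8.48 (SD over 6 spots), a scaled signal of 0.405 ± 0.0181. Set against the lowest detected signal of the other array, H+G-Exo was at least 6.20-fold above H-Exo and at least 8.97-fold above N-Exo, or 2.63 and 3.16 on the log2 scale. With normexp background correction these bounds shrank to 0.79 and 1.35, the first of them under 2-fold. Of the 109 miRNAs detected in H+G-Exo but not in H-Exo, 11% had such a bound of 2-fold or more, and of the 75 detected in H+G-Exo but not in N-Exo, 36% did. Its probes did not read alike: the 15-base probe read 105.3 ± 27.5 in H+G-Exo, while the 12- and 13-base probes read 6.98 and 7.17 and were not detected on any array. Each of the 4 miR-125b-1-3p probes, the undetected 12- and 13-base ones included, has 10 bases that pair with miR-125a-3p. All 4 probes for miR-125a-3p were also at their highest in H+G-Exo. How much of the miR-125b-1-3p signal comes from miR-125a-3p was not tested.

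miR-125b-2-3p, the passenger of the chromosome 16 hairpin, stayed near background throughout. Its 4 probes read 5.58 to 11.7, 3.20 to 7.52 and 3.02 to 4.26 before scaling (N-Exo, H-Exo, H+G-Exo), and no fold is given for it. These probes have up to 12 bases that pair with miR-125a-3p, and they stayed at background in H+G-Exo, where that miRNA was brightest. Binding of miR-125a-3p to other members' probes was not tested.

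The arms of the miR-125a hairpin were then set against each other within each comparison. The 3p arm exceeded the 5p arm by a log2 difference of 1.19 (SE 0.0742) in H-Exo versus N-Exo, by 3.23 (SE 0.0607) in H+G-Exo versus H-Exo and by 4.42 (SE 0.0776) in H+G-Exo versus N-Exo. As ratios of changes these are 2.29-, 9.38- and 21.5-fold. They are the same under every divisor of an array. Arms were paired by their RefSeq gene or by a shared name, which gave 774 hairpins on the array, where a guide that comes from several genes counts once with each. Both arms were above the floor for 60, 54 and 51 of these, whose median gap was -0.04, -0.36 and -0.25. miR-125a had the 7th highest gap in the first comparison and the highest in the others, where the next were miR-1897 at 2.14 and miR-30c at 3.56.

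Opposite calls for the 2 arms were given to 0 of the 63 hairpins with both arms detected in H-Exo and N-Exo, to 0 of 59 between H+G-Exo and H-Exo, and to 3 of 68, or 4.41%, between H+G-Exo and N-Exo. One of these was miR-125a. The others, miR-365-1 and miR-193b, were named after their values were seen and ran in the opposite sense, with a 5p arm that rose and a 3p arm that fell. In miR-365-1 the arms stood at 1.62 and -1.34. In miR-193b the 3p arm stood at -1.39 and the 5p arm was below the floor in N-Exo.

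**Figure D3:**
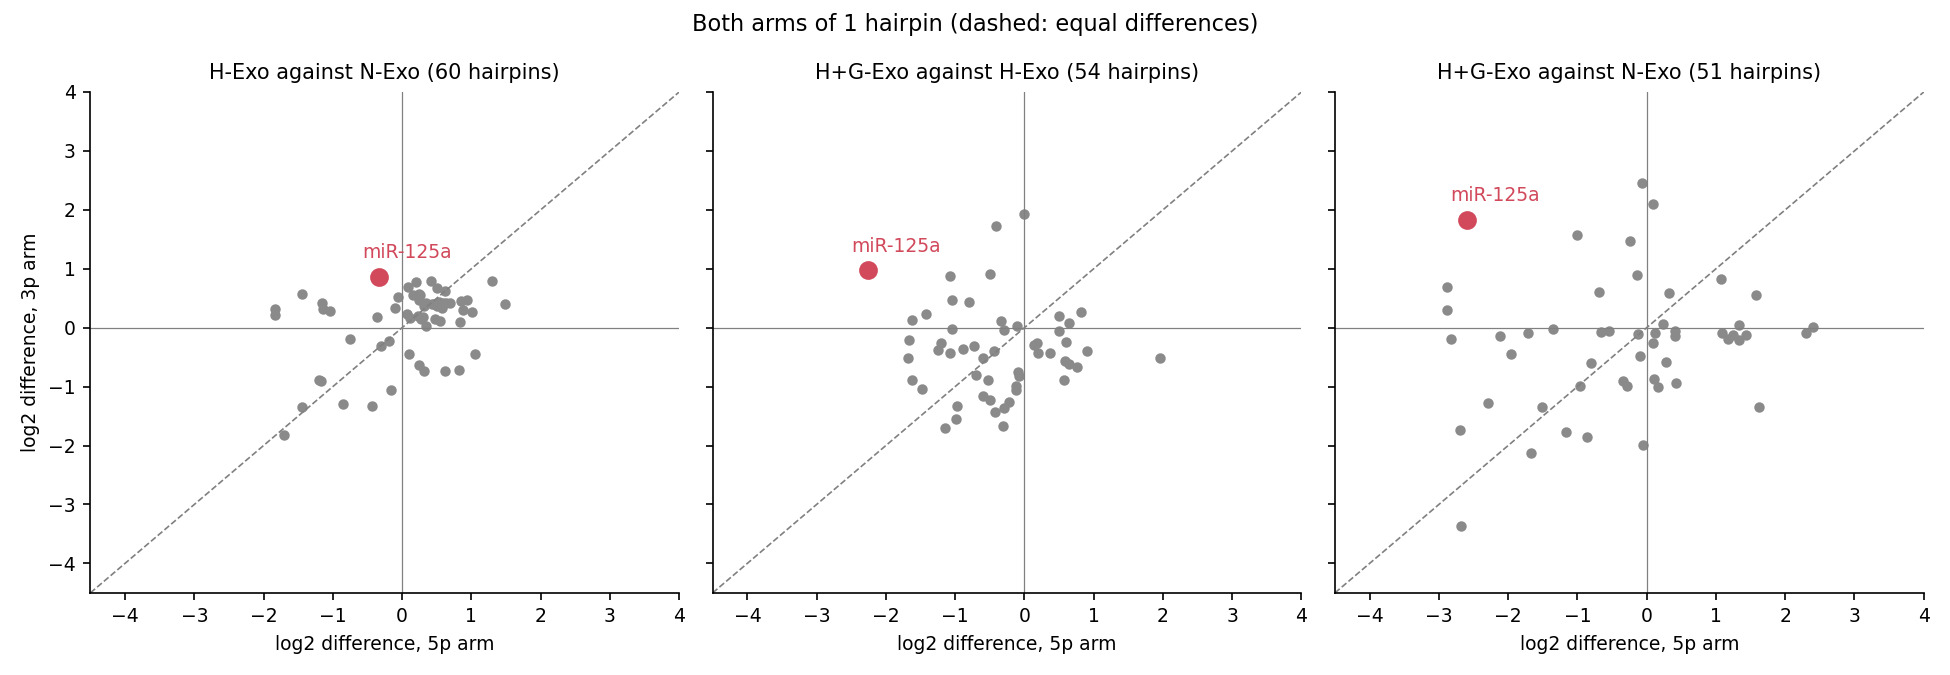
Each point is 1 hairpin with both arms above the floor, placed by the log2 difference of its 5p arm (horizontal) and 3p arm (vertical) in the comparison named above the panel; the dashed line marks equal differences. miR-125a (red) lies above the line in each panel, by 1.19, 3.23 and 4.42, and in H+G-Exo versus N-Exo it lies at -2.59 and 1.83.

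Probe GC content moved with the differences across the array, and its part in the split of the arms was not tested. Among miRNAs whose probe was within 5 percentage points of GC, the median log2 difference in H+G-Exo versus N-Exo was -0.98 around miR-125a-5p (89 miRNAs), -1.14 around miR-125b-5p (98) and 0.05 around miR-125a-3p (129). Of those neighbours 15, 24 and 9 lay further out than the member itself. In H+G-Exo versus H-Exo the medians were -0.84, -0.85 and -0.23, and none of the 88 neighbours of miR-125a-5p was lower than it, while 32 of 97 were lower than miR-125b-5p and 15 of 133 higher than miR-125a-3p. In H-Exo versus N-Exo the medians were -0.17, -0.22 and 0.38, and 43 of 102, 33 of 112 and 6 of 135 neighbours lay further out. Relative to these neighbours the gap of the miR-125a arms was 0.64, 2.62 and 3.39 in the order hypoxia against normoxia, inhibitor against hypoxia and inhibitor against normoxia. The 3p probe of miR-125a had 15.13 points more GC than the 5p probe. The 7 other hairpins with at least that excess had median arm gaps of 0.09, 0.46 and -0.21, and at most 0.59, 1.94 and 2.54.

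**Figure D4:**
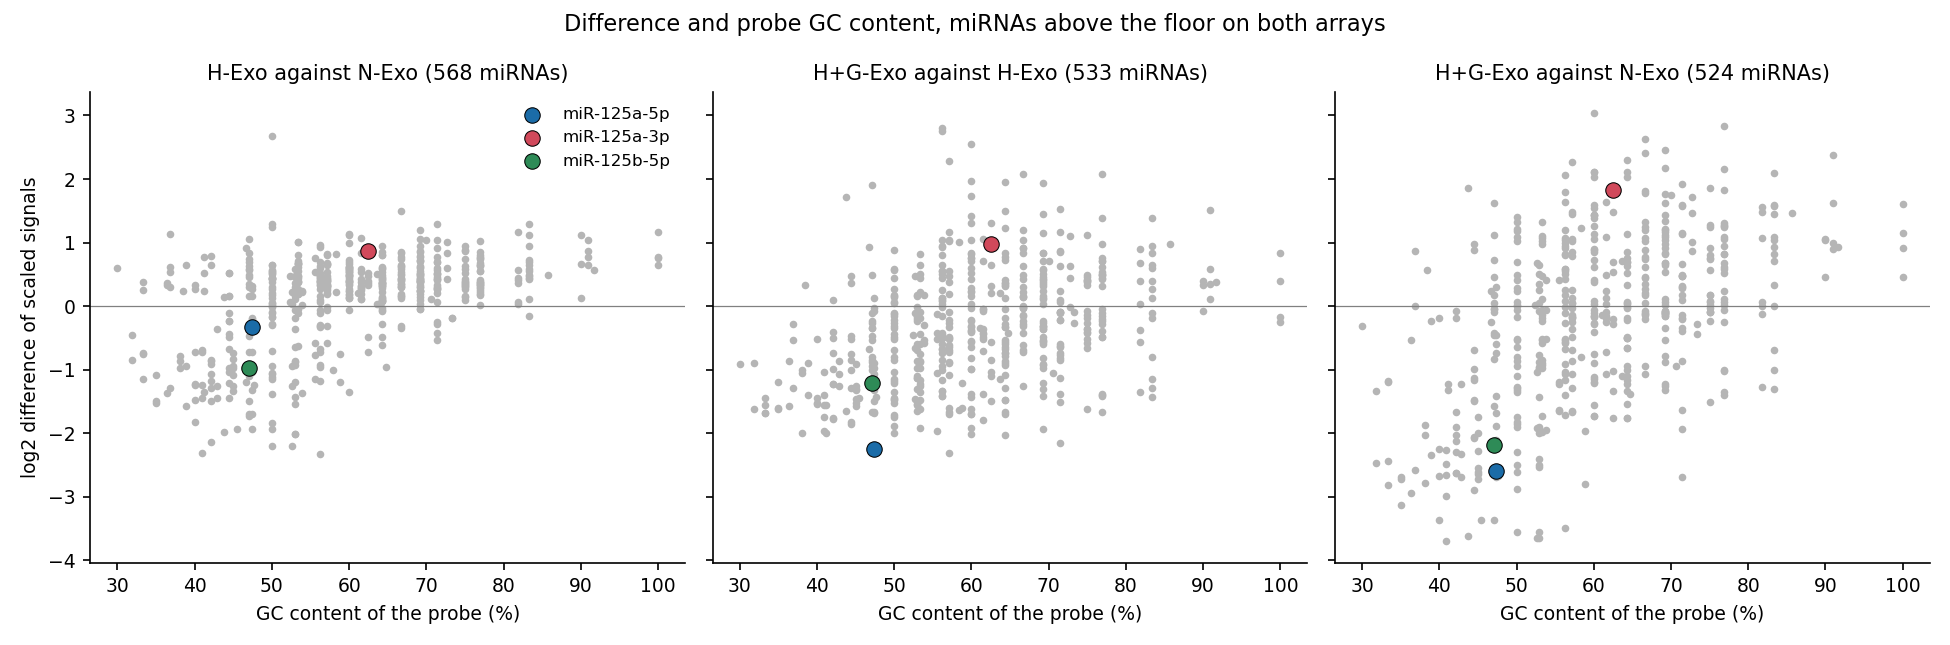
Each grey point is 1 miRNA above the floor on both arrays, placed by the GC content of its brightest probe (%) and its log2 difference; coloured points are miR-125a-5p (blue), miR-125a-3p (red) and miR-125b-5p (green). In H+G-Exo versus N-Exo the miRNAs around the guides are mostly below 0, with medians of -0.98 and -1.14, whereas those around miR-125a-3p have a median of 0.05.

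Each miR-125 gene sits in a cluster with a miR-99/100 gene and a let-7 gene, an arrangement known across animals. let-7 miRNAs restrain proliferation and keep cells differentiated, and miR-99/100 miRNAs are known to target mTOR. In GRCm38.p6 the miR-125a cluster spans 686 bases, the miR-125b-1 cluster 50578 and the miR-125b-2 cluster 47404. let-7a-5p and let-7c-5p also come from other genes.

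All 6 guide-side (5p) partners were measured. Of these 4 fell in H-Exo versus N-Exo, 5 in H+G-Exo versus H-Exo and 6 in H+G-Exo versus N-Exo, beside 10.7%, 26.1% and 26.3% of all measured miRNAs, and 0 rose. Their probes had 35.0% to 56.3% GC. Relative to miRNAs of like probe GC, 2, 0 and 3 of them fell, and with no scaling 6, 0 and 6.

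In the miR-125a cluster, miR-99b-5p had scaled signals of 2.51, 2.04 and 0.763 in N-Exo, H-Exo and H+G-Exo. let-7e-5p had 15.3, 8.50 and 2.47. Like miR-125a-5p, neither reached 2-fold in hypoxia alone, at -0.30 and -0.84, and both fell with the inhibitor, at -1.42 and -1.78 against H-Exo and at -1.72 and -2.63 against N-Exo. This split of the steps depends on the scaling. With no scaling miR-99b-5p and let-7e-5p passed 2-fold in H-Exo versus N-Exo, at -1.13 and -1.67. They then missed it in H+G-Exo versus H-Exo, at -0.42 and -0.78.

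In the miR-125b-1 cluster, miR-100-5p read 3.33, 1.39 and 0.884 and let-7a-5p read 26.6, 12.5 and 4.04. miR-100-5p fell by 1.26 in hypoxia on the log2 scale, and let-7a-5p fell by 1.09. let-7a-5p fell again with the inhibitor, by 1.63, while miR-100-5p stood at -0.66, a difference that turned to 0.34 with no scaling. In the miR-125b-2 cluster, miR-99a-5p read 0.995, 0.217 and 0.0789 and fell by 2.20 and then by 1.46. let-7c-5p read 60.0, 28.7 and 12.2 and fell by 1.06 and then by 1.23. The drop with hypoxia was thus larger in all 4 partners of miR-125b than in the 2 partners of miR-125a, as it was for the guides. Relative to miRNAs of like probe GC this order was lost, since let-7a-5p and let-7c-5p stood at -0.33 and -0.32 and miR-99b-5p at -0.66.

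Of the 6 passenger-side (3p) partners, 1 was measured. miR-99b-3p read 0.187 ± 0.0197, 0.151 ± 0.0296 and 0.177 ± 0.0198 in N-Exo, H-Exo and H+G-Exo. Its log2 differences were -0.31, 0.23 and -0.08 in H-Exo versus N-Exo, H+G-Exo versus H-Exo and H+G-Exo versus N-Exo, short of 2-fold in each. With no scaling they were -1.14, 1.23 and 0.09. The sign in H+G-Exo versus N-Exo turned under 9 of 14 alternatives and the value stayed between -0.25 and 0.58, whereas miR-125a-3p was at 1.69 to 2.18.

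**Figure D5:**
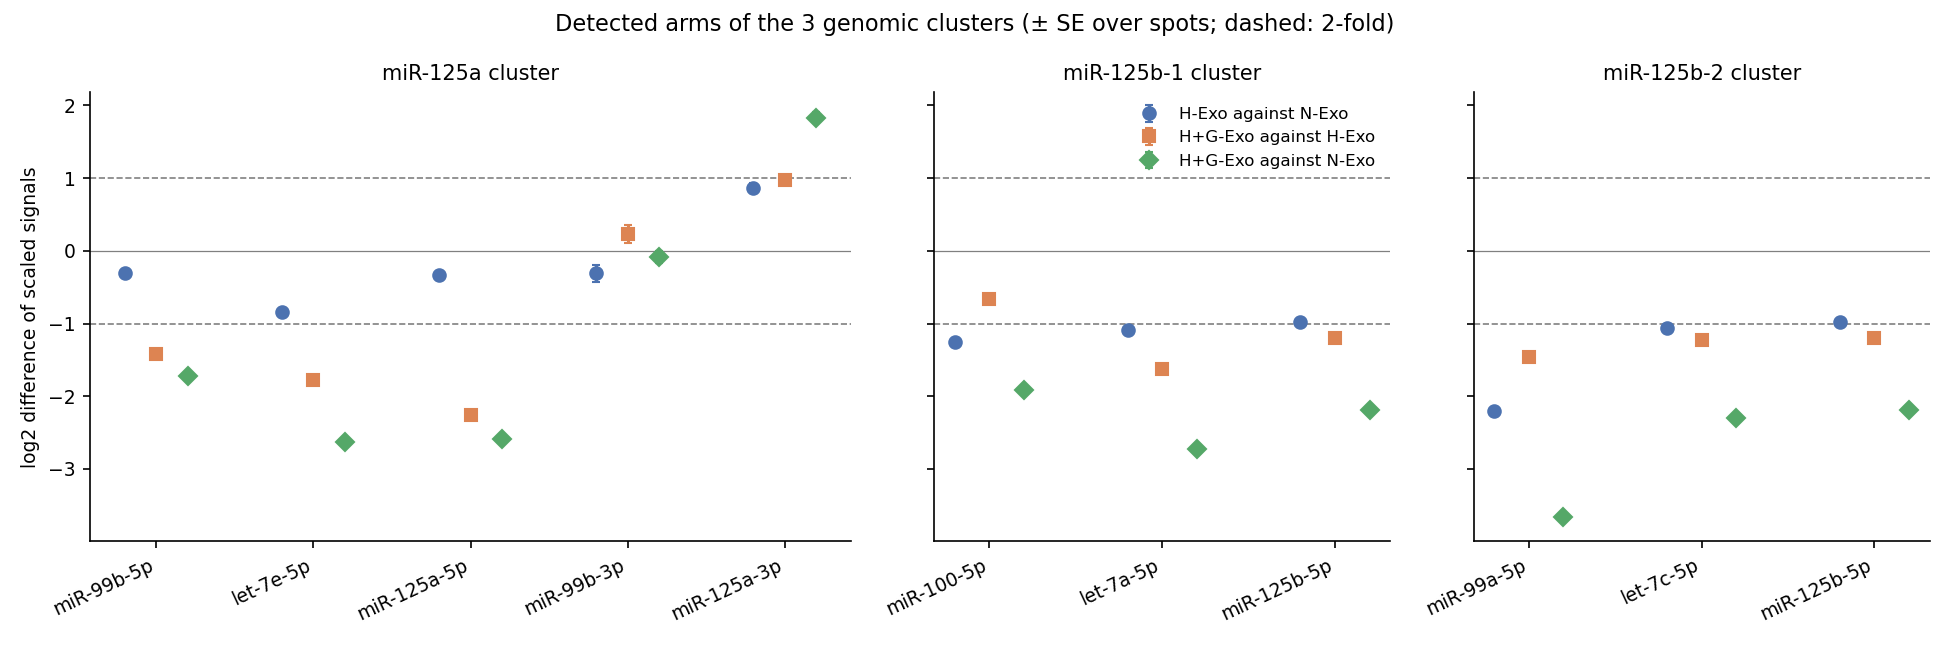
Log2 differences of scaled signals, with SE over spots, are plotted for the detected arms of the 3 clusters; circles are H-Exo versus N-Exo, squares H+G-Exo versus H-Exo and diamonds H+G-Exo versus N-Exo, and dashed lines mark 2-fold. In the miR-125a cluster the circles of the 5p arms lie at -0.30, -0.84 and -0.33, above those of the miR-125b clusters, and of the arms plotted only miR-125a-3p lies above 2-fold upward.

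The 3 other miRNAs found with the guide seed are shown for what follows that seed; capitals again mark bases 2 to 8.
miR-351-5p: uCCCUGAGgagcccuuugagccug
miR-6367: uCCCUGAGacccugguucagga
miR-6394: uCCCUGAGuggggccaggucu
miR-351-5p, of a cluster on the X chromosome, was detected in N-Exo alone, at a scaled signal of 0.122. Only its 16-base probe was detected there, at 50.7 before scaling. The 13-, 14- and 15-base probes read -2.81, -1.34 and 6.16 in N-Exo and were not detected. H-Exo was at least 1.86-fold lower and H+G-Exo at least 3.23-fold lower. Of the 102 miRNAs detected in N-Exo but not H-Exo, 7.84% had such a bound of 2-fold or more, and of the 83 detected in N-Exo but not H+G-Exo, 37.3% did. miR-6367 was not detected on any array. miR-6394 went the other way from the guides, at 1.28 ± 0.330, 1.84 ± 0.506 and 2.85 ± 0.836, and rose in H+G-Exo versus N-Exo by a log2 difference of 1.15 (SE 0.145). Its probe has 71.4% GC, and relative to miRNAs of like GC the difference was 0.82, under 2-fold. Its difference in H-Exo versus N-Exo, 0.52, turned to -0.31 with no scaling. Of these 3 relatives, then, miR-6394 was higher in H+G-Exo than in N-Exo, miR-351-5p was detected in N-Exo alone and miR-6367 on no array.

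By distance in the plane of the log2 differences H-Exo versus N-Exo and H+G-Exo versus H-Exo, the nearest of 517 miRNAs to miR-125a-5p were miR-5100 (distance 0.22), miR-541-5p (0.43) and miR-96-5p (0.45). miR-5100 stood at -0.53 and -2.16, close to miR-125a-5p. The probes of these 3 neighbours have 71.4%, 44.4% and 40.9% GC in the order named, and the part of GC was not tested. The value of miR-541-5p in hypoxia was loose, at -0.24 with an SE of 0.271. Nearest to miR-125b-5p were miR-1839-3p (0.07), its cluster partner let-7c-5p (0.09) and miR-29a-3p (0.13), with probes of 42.1%, 42.1% and 45.0% GC. Nearest to miR-125a-3p, a member added to this rule after its values were seen, were miR-705 (0.02), miR-370-3p (0.05) and miR-2861 (0.16), all at 0.78 to 0.85 and 0.83 to 0.98. Of these, miR-370-3p and miR-2861 have probes of 66.7% and 100% GC. For the neighbours of miR-125b-5p and miR-125a-3p the part of GC was not tested either. These neighbours share the arrays and the scaling.

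The scanner software also lists a total per miRNA. For miR-125a-5p it was 591.5, 265.1 and 112.8 in N-Exo, H-Exo and H+G-Exo, for miR-125a-3p 222.4, 232.3 and 929.7, and for miR-125b-5p 9045, 2631 and 2242, each equal to the sum over its detected probes. For miR-125b-1-3p in H+G-Exo the list gives 151.6, whereas its own detected probes sum to 38.8. The surplus of 112.8 equals the listed total of miR-125a-5p on that array, so for this arm the probe signals and not the listed total were used.

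The authors' deposited table holds log2 values with an unstated scaling. In it miR-125a-5p stood at 8.87, 8.57 and 6.66 in N-Exo, H-Exo and H+G-Exo. In the authors' deposited table miR-125b-5p stood at 12.84, 11.87 and 11.10 and miR-125a-3p at 7.58, 8.35 and 9.76. In the authors' deposited table miR-125b-1-3p was at the column minimum in N-Exo and H-Exo, -3.32 and -3.00, and at 5.07 in H+G-Exo, while miR-125b-2-3p was at the minimum in every column. The guides are lower and the detected passengers higher in H+G-Exo than in N-Exo in that table as well.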

How the data were processed

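Each group had 1 one-colour Agilent mouse miRNA array of 58594 spots, read with Agilent Feature Extraction 10.7.1.1, per the submitters' processing notes. The deposited scanner files give, per spot, a processed intensity already corrected for background, per the file headers. The authors' deposited table gives log2 values per miRNA; its column medians are -3.32 (N-Exo), -3.00 (H-Exo) and -3.30 (H+G-Exo), each column's mean is 0.29, and its scaling and centring are not stated. It tracked the log2 sum of detected probes within an array (r across miRNAs 0.987, 0.996 and 0.989), so its values run in the same direction. The labels' protocols name a kit for linear amplification of cRNA, which is unusual for a miRNA array, so the labelling is uncertain. All 3 arrays were on 1 slide.

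Control and outlier spots (1369 to 1568 per array) were left out and 0 spots were saturated. Spots of 1 probe were averaged, scaled to the 75th percentile of the probes that all 3 arrays detected, and put on the log2 scale, with a floor of 0.0653 scaled units. Values at the floor were left out of ranks, arm gaps and GC neighbours. The text names the members, the other miRNAs with a member's seed, the cluster partners and the 3 miRNAs nearest to each guide in their differences. The members and lists were chosen with earlier results of these data known. RefSeq names matched 1608 of the 1881 miRNAs and 5 of the 5 members. Python 3.11.15 (pandas 2.3.3, numpy 2.4.6) and R 4.3.3 (limma 3.58.1, for normexp) were used. The code for the call rule was run on simulated arrays whose planted changes were well above 2-fold, with noise between spots only. That run does not cover changes near 2-fold or variation between samples. With 1 array per group no test was made. The alternatives concerned scaling, background correction, probe choice, spots kept, the software's totals and the authors' table; comparison with miRNAs of like probe GC was added after seeing the data.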

Additional observations from a re-analysis of the deposited data

How the results depend on the processing

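In H+G-Exo versus N-Exo, the 2 guides stayed at least 2-fold lower and miR-125a-3p at least 2-fold higher under all 14 alternatives, at -2.62 to -1.61 for miR-125a-5p, -2.21 to -1.04 for miR-125b-5p and 1.69 to 2.18 for miR-125a-3p. miR-125a-5p kept its fall in H+G-Exo versus H-Exo, at -2.25 to -1.26. miR-125a-3p in H-Exo versus N-Exo stayed short of 2-fold under all 14, at 0.03 to 0.87. The log2 bound of miR-125b-1-3p in H+G-Exo versus N-Exo stayed above 2-fold under the 11 alternatives that gave it, at 1.35 to 3.48. The other calls of members turned on the choice, and where no cause is named the cause was not tested.

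miR-125b-5p in H-Exo versus N-Exo passed 2-fold with the 75th percentile over all probes (-1.20), the median (-1.08), no scaling (-1.81), labelling spike-ins (-1.57), hybridization spike-ins (-1.75), quantile normalization (-1.21), normexp (-1.11), every spot well above background (-1.05) and the software's total (-1.18). miR-125a-5p did so with no scaling (-1.16) and hybridization spike-ins (-1.10). In H+G-Exo versus H-Exo, miR-125b-5p fell short of 2-fold with the same first 6 choices (-0.87, -0.79, -0.21, -0.33, -0.32 and -0.84), the software's total (-0.90), the authors' deposited table (-0.77) and neighbours of like GC (-0.36). There miR-125a-3p passed 2-fold with those first 6 (1.31, 1.38, 1.97, 1.85, 1.86 and 1.20), the mean of detected probes (1.02), every spot well above background (1.04), the software's total (1.33), the authors' deposited table (1.41) and neighbours of like GC (1.21).

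The gap between the guides became 0.92 in H-Exo versus N-Exo and -1.24 in H+G-Exo versus H-Exo with quantile normalization, and -0.19 with normexp and -0.56 with like GC in H+G-Exo versus N-Exo. The gap between the miR-125a arms became 0.64, 2.62 and 3.39 with like GC in the 3 comparisons, and 2.91 and 4.03 with normexp in the last 2. The counts of all miRNAs past the rule were 87, 183 and 269. They became 45, 106 and 172 with normexp, 135 in H-Exo versus N-Exo with no scaling and 116 in H+G-Exo versus H-Exo with like GC.

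Signs turned for miR-99b-3p in H+G-Exo versus N-Exo (0.03, 0.23, 0.09, 0.21, 0.04 and 0.15 under the first 6 choices, 0.45 with the mean of probes, 0.53 with the software's total and 0.58 in the authors' deposited table), in H-Exo versus N-Exo (0.15 with normexp, 0.07 with the mean of probes) and in H+G-Exo versus H-Exo (-0.27 with normexp). They turned for miR-6394 in H-Exo versus N-Exo (-0.31, -0.07 and -0.25) and miR-100-5p in H+G-Exo versus H-Exo (0.34, 0.22 and 0.23) with no scaling, labelling and hybridization spike-ins. In H-Exo versus N-Exo they turned for miR-541-5p (0.03 with normexp, 0.48 with like GC) and miR-96-5p (0.17 with like GC). The offset of normexp, 50, draws dim signals together.

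No paired analysis was possible because each group has 1 array, and no array was left out for the same reason. At this signal over background miR-125b-1-3p has only a bound and miR-125b-2-3p no value.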
